A study of Mus musculus with 6 samples.

Results

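The amino acid and peptide carriers of the solute carrier (SLC) superfamily were examined in RNA-seq of epididymal white adipose tissue (eWAT) from WT and Prmt5AKO mice. Members were chosen by a rule on the symbol, with earlier results of these data known. They are every gene of the Slc1a, Slc3a, Slc6a, Slc7a, Slc15a, Slc36a, Slc38a and Slc43a families in the deposited gene table, together with Slc16a10. The rule gave 46 of the 16619 genes in the table, spread over 18 chromosomes. Both groups of mice carried the floxed Prmt5 alleles (Prmt5 flox/flox). WT mice had no Cre, and Prmt5AKO mice, labelled KO, also carried Adipoq-Cre, which is active in adipocytes, while the RNA came from whole tissue. All mice were 6-month-old females by the study's methods, although the depot is labelled with a male name. There were 3 libraries per genotype, prepared from polyA-enriched RNA. Whether the libraries come from separate mice is not given in the sources used here, so p-values measure only the spread between these libraries, which may be technical.

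These carriers bring free amino acids, and in the case of the Slc15a family short peptides, across the plasma membrane and out of lysosomes. Slc3a proteins are heavy chains that carry Slc7a light chains to the cell surface, where the pair exchanges one amino acid for another. Slc1a, Slc6a and most Slc38a carriers use the sodium gradient, whereas Slc36a and Slc15a carriers use the proton gradient. In fat, Slc7a10 is known as a marker of white adipocytes and Slc36a2 as a surface marker of brown and beige adipocytes. The symbols do not all name amino acid carriers. Slc6a2 takes up noradrenaline, Slc6a4 serotonin and Slc6a8 creatine, Slc43a3 is a purine nucleobase carrier, and no substrate is stated here for Slc15a5.

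Each library held between 18731215 and 27445096 reads assigned to genes. Prmt5 was 36.6, 59.7 and 39.7 CPM (normalised counts, the reads of a gene scaled to the authors' effective library size) in the WT libraries and 14.6, 22.0 and 28.5 CPM in the Prmt5AKO libraries. The genotypes did not overlap, with an exact two-sided permutation p of 0.1, the smallest that 3 against 3 allows. Prmt5AKO 1 stood apart from the other libraries of its genotype. The first principal component over all genes tested held 64.5% of the variance and placed Prmt5AKO 1 with WT 1 and WT 3, and WT 2 with Prmt5AKO 2 and 3. Xist, a nuclear RNA, was 904, 101 and 474 CPM in WT and 966, 44.1 and 44.5 CPM in Prmt5AKO, and so was high in the same 3 libraries. Adipocyte markers were abundant in every library, with Adipoq at 3194 to 5420.1 CPM, and the 6 epididymis markers were not analysed here.

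No member passed the limma test of Prmt5AKO against WT, which had genotype as its only term. The study's text, which speaks of a batch correction, names 7 members as differentially expressed at FDR under 0.05 and log2 fold change beyond 0.5. Slc15a3, Slc38a3 and Slc6a13 are given there as upregulated, and Slc15a5, Slc6a2, Slc1a3 and Slc7a10 as downregulated. Of the 46 members, 45 reached 0.5 CPM in 3 or more libraries and entered the limma fit, and 0 were called (adjusted p under 0.05 and log2 fold change beyond 0.5 in either direction), where 0% of all 16109 genes tested were called. The lowest adjusted p of a member was 0.318. At an unadjusted p under 0.05 there were 5 members higher in Prmt5AKO and 6 lower, and over all genes 4.79% were higher and 3.93% lower. Counting libraries rather than p-values, 7 members had all 3 Prmt5AKO values above all 3 WT values and 8 had them below, where 8.16% and 6.28% of all genes did so. The 8 include Slc7a13, which passed the filter through its WT libraries alone. The median log2 fold change was -0.16 over the members and -0.03 over all genes tested. The edgeR likelihood ratio test on the recovered reads called 1 member (Slc6a13), where it called 1.01% of all genes, and DESeq2 called 3 (Slc6a13, Slc38a3 and Slc15a5), where it called 1.87%. The edgeR quasi-likelihood test and limma-voom called 0 members. Each had 11 at an unadjusted p under 0.05, where 8.36% and 8.63% of all genes were. Without Prmt5AKO 1, limma also called 0 members, but 20 were at an unadjusted p under 0.05, where 35.3% of all genes were, and the median over the members was -0.38.

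**Figure D1:**
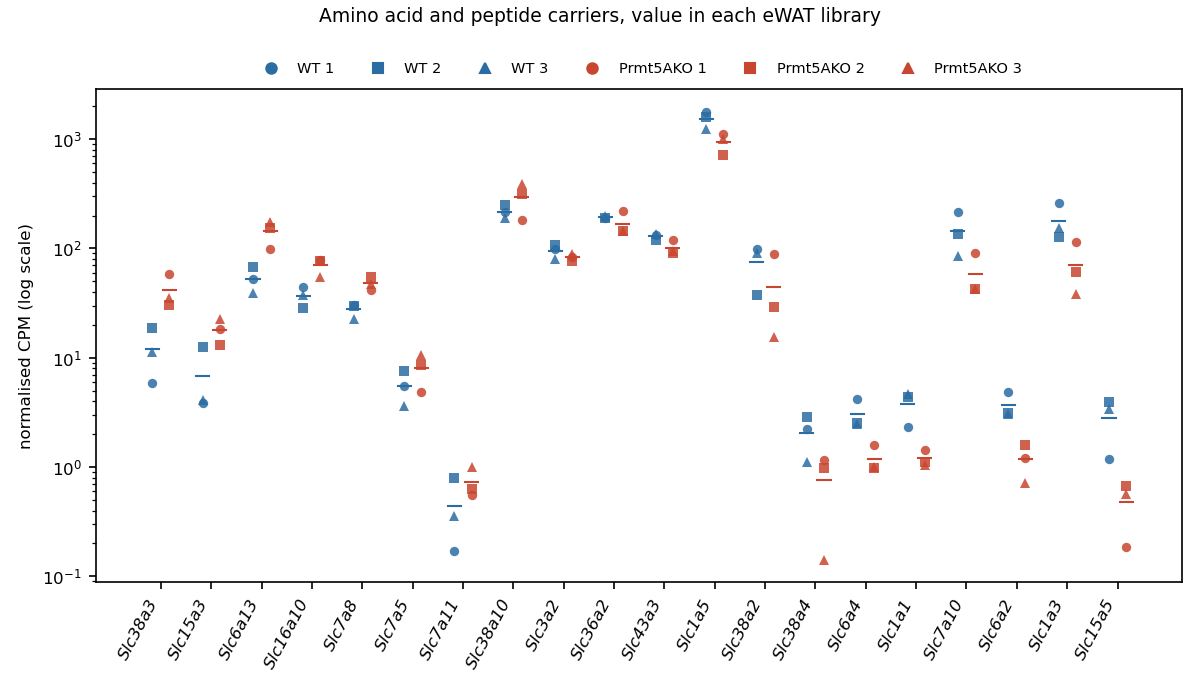
Normalised CPM (log scale) of 20 carriers in each eWAT library, ordered by log2 fold change, with WT in blue, Prmt5AKO in red, a marker shape for each replicate number and a bar at each mean of 3. Slc38a3, Slc15a3, Slc6a13, Slc16a10 and Slc7a8 on the left have every red point above every blue point, and Slc6a4, Slc1a1, Slc6a2, Slc1a3 and Slc15a5 on the right have every red point below.

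Slc1a5 (chr7:16781340-16798274, GRCm38), the sodium-dependent exchanger of glutamine and other neutral amino acids known as ASCT2, was by far the most abundant carrier per exon length. Its level was 368 ± 63.9 CPM per kb of exon in WT and 226 ± 49.5 in Prmt5AKO (SD, n = 3). The lowest Slc1a5 level in any library, 172 CPM per kb, lay above the highest of any other member, 103 CPM per kb for Slc7a10 in WT 1. Slc1a5 alone made up 46.4% to 50.5% of the summed CPM of the members in WT and 32.7% to 39.3% in Prmt5AKO. Next in order of mean level were Slc36a2 (44.0 to 66.9 CPM per kb over the 6 libraries), Slc7a10 (20.2 to 103), Slc38a10 (28.3 to 60.0) and Slc6a13 (13.4 to 60.7). The ranges of these 4 overlapped, so their order is not separated by this spread. Slc43a3 (20.2 to 30.5 CPM per kb), Slc3a2 (21.8 to 30.3) and Slc1a3 (4.47 to 30.5) completed the 8 highest and overlapped one another. At the other end were Slc7a11, at a mean of 0.042 CPM per kb, and Slc1a2, at 0.041, the only member that did not pass the filter.

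**Figure D2:**
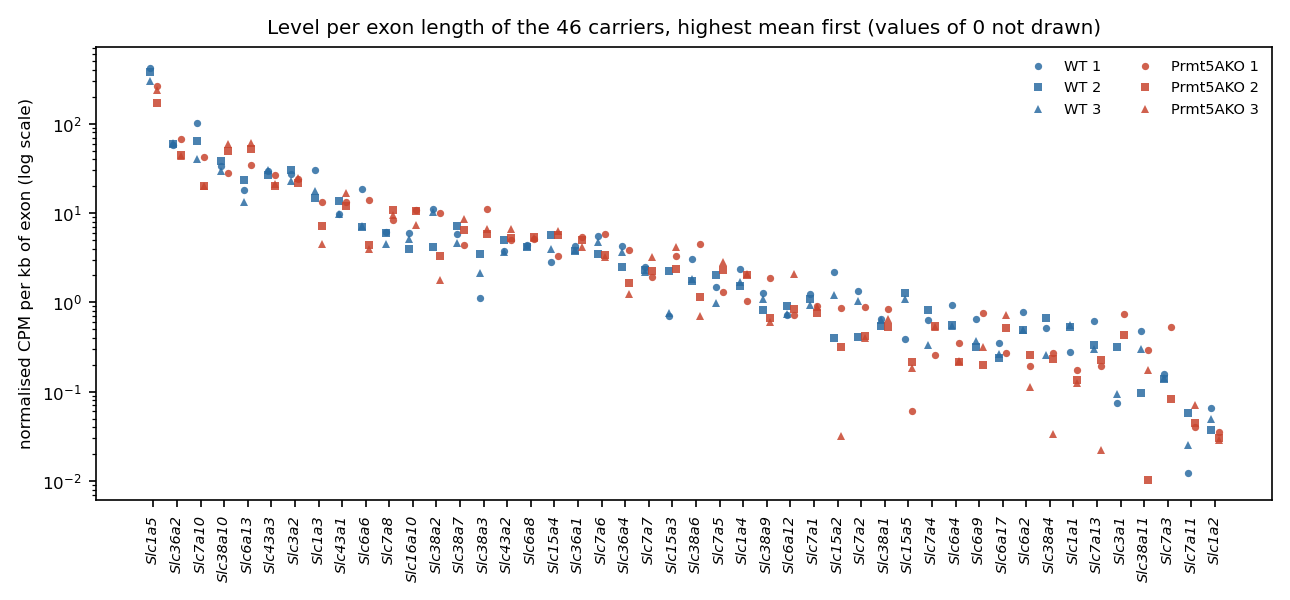
CPM per kb of exon (log scale) of the 46 carriers in each library, highest mean first, with WT in blue and Prmt5AKO in red, and no point for a value of 0. Slc1a5 stands above the rest in all 6 libraries, between 172 and 426 CPM per kb, and the next 4 carriers overlap.

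The Slc1a carriers were lower in Prmt5AKO as far as their estimates go. All 4 members tested had negative log2 fold changes, under each of the 3 scalings tried, and the genotypes did not overlap for 3 of them. Slc1a5 was 1778, 1581 and 1250.1 CPM in WT and 1118, 716 and 998 CPM in Prmt5AKO. All of the Prmt5AKO values lay below the lowest WT value, and the log2 fold change was -0.71 ± 0.36 (SE here and below, adjusted p = 0.596 by limma). Slc1a3, the glutamate and aspartate carrier GLAST, was 260.2, 127 and 153 CPM in WT and 115, 60.6 and 38.2 CPM in Prmt5AKO. The highest Prmt5AKO library, Prmt5AKO 1, came close to the lowest WT library, WT 2. For Slc1a3 the log2 fold change was -1.41 ± 0.45 (limma adjusted p = 0.436). With 1 library left out in turn it ran from -1.82 (without Prmt5AKO 1) to -1.03 (without Prmt5AKO 3), with limma adjusted p from 0.0570 to 0.998. For Slc1a5 and Slc1a3 the genotypes overlapped when plain library totals were used for scaling. Slc1a1, a carrier of glutamate and cysteine, was 2.30, 4.35 and 4.66 CPM in WT and 1.44, 1.115 and 1.04 CPM in Prmt5AKO. Its 3 Prmt5AKO libraries were close together and below all WT libraries, with a log2 fold change of -1.29 ± 0.36 (limma adjusted p = 0.383). Exons of an antisense gene cover 31.9% of the Slc1a1 exon length, and the sources used here do not say whether reads were counted by strand. Slc1a4, which carries serine and alanine, had genotypes that overlapped (4.04 to 9.17 CPM), and Slc1a2, a glutamate carrier, stayed between 0.378 and 0.853 CPM.

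Markers of some other cell types differed beside the Slc1a carriers. Of 6 fibroblast markers, 4 were lower at an unadjusted p under 0.05 and 0 higher, and their summed level was 3195 to 5209 CPM in WT and 2014 to 2644 CPM in Prmt5AKO, without overlap. Of 6 smooth muscle and pericyte markers, 3 were higher at an unadjusted p under 0.05 and 0 lower. Their summed level was 741 to 1375 CPM in WT and 1236 to 2499 CPM in Prmt5AKO, with overlap. The 7 mesothelium markers all had negative log2 fold changes, but 0 of them and 0 of 5 skeletal muscle markers were under that p. Endothelium, B cell and ovary markers had 0 higher and 1 lower each, and Schwann cell markers 1 higher and 0 lower. Over all genes tested, 4.79% were higher and 3.93% lower at that threshold. The part of these cell types in the carrier values was not tested.

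Among the Slc3a and Slc7a genes, 1 light chain was higher in all Prmt5AKO libraries and the white adipocyte marker Slc7a10 was lower in means, with overlap. The heavy chain Slc3a2 was 97.9, 107 and 80.0 CPM in WT and 84.3, 76.9 and 88.2 CPM in Prmt5AKO. These values overlapped, and the log2 fold change was -0.18 ± 0.24 (limma adjusted p = 0.731), which was -0.09 without WT 2 and -0.30 without WT 3. Slc7a8 (LAT2, chr14:54722209-54781946), a light chain for neutral amino acids, was 30.5, 29.9 and 22.8 CPM in WT and 42.1, 54.4 and 47.3 CPM in Prmt5AKO. Every Prmt5AKO library exceeded every WT library, and the log2 fold change was 0.78 ± 0.26 (limma adjusted p = 0.460). Slc7a10 (Asc-1, chr7:35186385-35201114), which exchanges small neutral amino acids such as serine and glycine, was 217, 134 and 84.5 CPM in WT and 90.4, 42.5 and 42.6 CPM in Prmt5AKO. Prmt5AKO 1 was above WT 3, so the genotypes overlapped, while Prmt5AKO 2 and 3 lay below all WT libraries. Its log2 fold change was -1.30 ± 0.43 (limma adjusted p = 0.473). Leaving out 1 library in turn gave -1.65 (without Prmt5AKO 1) to -0.96 (without WT 1), with limma adjusted p from 0.0614 to 0.998. Exons of Lrp3 on the other strand cover 17.9% of its exon length.

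Not every adipocyte marker went with Slc7a10. Of the 10 markers listed, 6 had negative and 4 positive log2 fold changes, and the genotypes did not overlap, with lower values in Prmt5AKO, for Pparg and Cfd. The summed level of the list was 47250.1 to 56791 CPM in WT and 35484 to 46469 CPM in Prmt5AKO. In bulk tissue, fewer cells of a type and less RNA per cell cannot be told apart.

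The light chain Slc7a5 (LAT1), the main carrier of large neutral amino acids in many growing cells, was 5.55, 7.49 and 3.63 CPM in WT and 4.87, 8.65 and 10.5 CPM in Prmt5AKO. The genotypes overlapped, with a log2 fold change of 0.48 ± 0.41 (limma adjusted p = 0.640). The estimate was 0.23 without WT 3, 0.26 without Prmt5AKO 3 and 0.78 without Prmt5AKO 1. Slc7a11 (xCT), which takes up cystine in exchange for glutamate, was 0.171, 0.795 and 0.356 CPM in WT and 0.557, 0.624 and 0.992 CPM in Prmt5AKO. These values overlapped, with a log2 fold change of 0.42 ± 0.36 (limma adjusted p = 0.643), which was 0.20 without WT 1, 0.27 without Prmt5AKO 3 and 0.68 without WT 2. Of the other 3 light chains, Slc7a6 and Slc7a7 overlapped between genotypes. Slc7a13 was 0.640 to 1.32 CPM in WT and 0.0472 to 0.490 CPM in Prmt5AKO, without overlap. It reached 0.5 CPM in the WT libraries alone, so its lack of overlap followed from the filter. The 4 cationic amino acid carriers (Slc7a1 to Slc7a4 by symbol, which include the arginine and lysine carriers Slc7a1, Slc7a2 and Slc7a3) had negative log2 fold changes, from -0.61 to -0.07. Slc7a1 was the one without overlap, at 10.8 to 14.4 CPM in WT and 8.87 to 10.5 CPM in Prmt5AKO, and it overlapped too with plain library totals. The second heavy chain, Slc3a1, was at or below 1.67 CPM in every library.

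Slc7a11 is a textbook target of ATF4, the transcription factor that responds to amino acid shortage, through a C/EBP-ATF element. The letters TGATGNAA, its core, were searched on both strands of the RefSeq promoter windows (GRCm38.p6, 250 bases before to 50 after a start site) that could be matched to 32 of the 46 members. They were found for 4 of these 32 genes (12.5%), against 4.51% of the 27025 genes with a window. Of the 11627 tested genes with a window, 2.85% had a match. The 32 genes had 50 windows, and a gene with more windows has more places for a match. By window the shares were 10% for the members, 3.97% for all genes and 2.36% for tested genes. These shares were not tested against each other. The windows of the 4 are shown because their letters can be set beside the values of these genes, with the matches in capitals and each written 5′ to 3′ in the direction of the gene, which is the minus strand for all 4. They are chr3:50443564-50443863 (Slc7a11), chr11:20332664-20332963 (Slc1a4), chr14:54417895-54418194 (Slc7a7) and chr6:138079867-138080166 (Slc15a5).
Slc7a11: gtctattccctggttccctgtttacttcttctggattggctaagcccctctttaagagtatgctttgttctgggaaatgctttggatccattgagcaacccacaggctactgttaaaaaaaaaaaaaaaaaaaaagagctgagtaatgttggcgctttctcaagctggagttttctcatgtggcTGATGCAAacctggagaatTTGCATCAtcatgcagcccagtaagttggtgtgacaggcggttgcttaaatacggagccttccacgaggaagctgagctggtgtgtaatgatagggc
Slc1a4: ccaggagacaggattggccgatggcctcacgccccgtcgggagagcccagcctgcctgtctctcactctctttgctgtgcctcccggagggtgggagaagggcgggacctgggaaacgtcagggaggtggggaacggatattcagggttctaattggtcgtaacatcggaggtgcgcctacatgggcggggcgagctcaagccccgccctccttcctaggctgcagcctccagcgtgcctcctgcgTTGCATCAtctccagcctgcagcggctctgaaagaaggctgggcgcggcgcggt
Slc7a7: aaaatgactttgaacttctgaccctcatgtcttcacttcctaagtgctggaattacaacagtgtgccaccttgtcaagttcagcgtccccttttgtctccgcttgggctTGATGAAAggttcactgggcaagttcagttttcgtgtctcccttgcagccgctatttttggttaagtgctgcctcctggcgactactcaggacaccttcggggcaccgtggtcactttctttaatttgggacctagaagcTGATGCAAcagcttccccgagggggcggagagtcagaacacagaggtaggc
Slc15a5: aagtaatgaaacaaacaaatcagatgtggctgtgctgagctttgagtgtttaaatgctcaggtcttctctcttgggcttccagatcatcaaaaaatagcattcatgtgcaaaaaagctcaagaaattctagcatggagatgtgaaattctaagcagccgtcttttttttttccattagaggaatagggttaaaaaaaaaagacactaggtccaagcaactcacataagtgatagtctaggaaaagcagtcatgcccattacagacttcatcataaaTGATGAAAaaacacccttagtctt
The Slc7a11 window holds the letters on both strands, starting 66 and 47 bases before the start site, facing each other. The Slc1a4 match starts 4 bases before the start site, and that of Slc15a5 lies 26 bases after it. The Slc7a7 window shown, 1 of 5 for this gene, has matches that start 141 bases and 1 base before the start site. Another Slc7a7 window (chr14:54417653-54417952) holds the latter TGATGCAA too, 243 bases before its own start site. Its distance thus depends on which start site is used. A match is a description of the letters and not evidence that a factor binds there. Of these 4 genes, Slc7a11, Slc1a4 and Slc7a7 overlapped between genotypes, and Slc15a5 was lower in every Prmt5AKO library.

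The Slc6a carriers went both ways. Slc6a13 (GAT2, chr6:121300227-121337733), which takes up GABA, taurine and related compounds with sodium and chloride, had the smallest p of all members. It was 52.4, 67.7 and 38.9 CPM in WT and 99.9, 153 and 176 CPM in Prmt5AKO. The lowest Prmt5AKO library was above the highest WT library. The log2 fold change was 1.42 ± 0.32 (adjusted p = 0.318 by limma, 0.0286 by the edgeR likelihood ratio test and 0.0141 by DESeq2). Over the fits without 1 library the estimate lay between 1.22 (without WT 3) and 1.66 (without Prmt5AKO 1), with limma adjusted p from 0.0519 to 0.946. Slc6a12 (BGT1), the betaine and GABA carrier, starts 5.34 kb beyond the end of Slc6a13. Its values overlapped, at 2.18 to 2.80 CPM in WT and 2.23 to 6.33 CPM in Prmt5AKO. The neighbour was looked up after the values were seen.

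Slc6a2, the noradrenaline carrier of sympathetic neurons, was 4.86, 3.10 and 3.06 CPM in WT and 1.21, 1.61 and 0.708 CPM in Prmt5AKO. All Prmt5AKO libraries lay below all WT libraries, with a log2 fold change of -1.33 ± 0.37 (limma adjusted p = 0.382). Of 7 listed markers of noradrenergic neurons, 3 were analysed here, and they went different ways. The vesicular carrier Slc18a2 overlapped between genotypes (1.93 to 2.46 CPM in WT and 0.519 to 3.06 CPM in Prmt5AKO), Ddc was lower in every Prmt5AKO library and Gap43 higher. The summed level of these 3 was 2.95 to 4.22 CPM in WT and 2.08 to 5.94 CPM in Prmt5AKO. Their part in the Slc6a2 values was not tested. Slc6a4, the serotonin carrier, was 4.18, 2.54 and 2.49 CPM in WT and 1.58, 0.981 and 0.992 CPM in Prmt5AKO, again without overlap. Its log2 fold change was -1.07 ± 0.35 (limma adjusted p = 0.460).

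Slc6a8, the creatine carrier, showed the least spread of the family. It was 21.5 to 22.7 CPM in WT and 26.7 to 28.2 CPM in Prmt5AKO, without overlap but with a log2 fold change of only 0.30 ± 0.24. The taurine carrier Slc6a6, the glycine carrier Slc6a9 and the vesicular neutral amino acid carrier Slc6a17 all overlapped between genotypes. For Slc6a6, WT 1 (158 CPM) and Prmt5AKO 1 (117 CPM) were each well above the other libraries of their genotype.

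**Figure D3:**
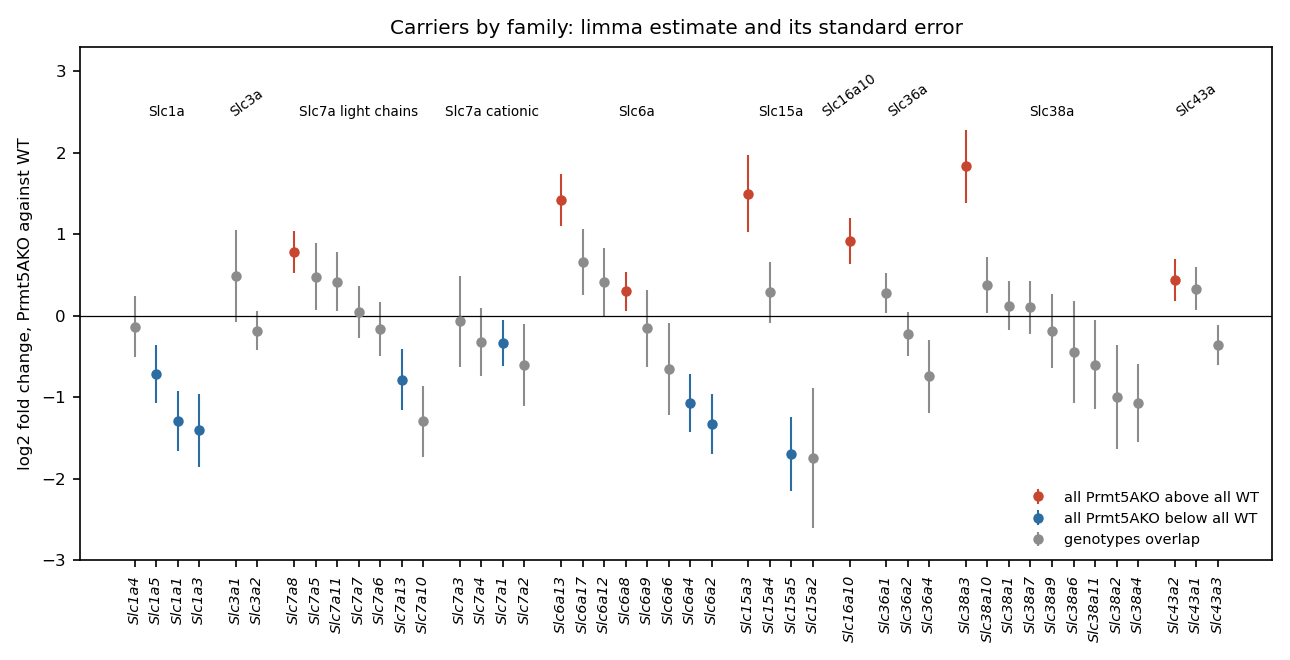
Log2 fold change of Prmt5AKO against WT for the 45 carriers tested, grouped by family, with the limma estimate as a point and its standard error as a bar. Red marks genes with all Prmt5AKO libraries above all WT libraries, blue the reverse and grey an overlap, and Slc1a has no point above 0 while Slc6a, Slc15a and Slc38a spread to both sides.

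The peptide carriers were the family with the widest spread, from -1.75 to 1.50 on the log2 scale among 4 members tested. Slc15a3 (PHT2, chr19:10839727-10859362), an endolysosomal carrier of histidine and short peptides known from macrophages and dendritic cells, was 3.88, 12.4 and 4.13 CPM in WT and 18.3, 13.1 and 22.6 CPM in Prmt5AKO. WT 2 came just under Prmt5AKO 2, and with plain library totals the genotypes overlapped. By limma the log2 fold change was 1.50 ± 0.47 (limma adjusted p = 0.436). Exons of Tmem132a on the other strand cover 28.1% of the Slc15a3 exon length. Some macrophage markers had the same order. Of 12 listed, Cd68 and Itgax were higher in every Prmt5AKO library and Cd163 was lower in every one, while the summed level overlapped (1338 to 2296 CPM in WT and 1738 to 2776 CPM in Prmt5AKO). The 7 T and NK cell markers all had positive log2 fold changes, with a summed level of 11.2 to 21.4 CPM in WT and 30.5 to 79.9 CPM in Prmt5AKO. None of these markers was at 0, and their part in the Slc15a3 values was not tested.

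Slc15a5 (chr6:137983586-138079916), a peptide carrier homologue, was 1.19, 3.94 and 3.38 CPM in WT and 0.186, 0.669 and 0.567 CPM in Prmt5AKO. Its 3 Prmt5AKO values lay below all WT values, and the ratio of means was 0.167. The log2 fold change was -1.70 ± 0.46 by limma (adjusted p = 0.375) and -2.57 by DESeq2 (adjusted p = 0.0342), and the limma pseudocount of 0.5 CPM lies within the range of its Prmt5AKO values. Slc15a2, the kidney and brain peptide carrier PEPT2, had the most negative log2 fold change of the members by limma, -1.75 ± 0.86, but ran from 2.95 to 16.1 CPM in WT and from 0.236 to 6.40 CPM in Prmt5AKO, with overlap. Slc15a4, the other endolysosomal histidine and peptide carrier, overlapped too (14.9 to 30.4 CPM in WT and 17.4 to 33.9 CPM in Prmt5AKO).

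Slc16a10 (TAT1, chr10:40033532-40142258), which lets aromatic amino acids through the membrane without coupling to an ion, was 44.4, 28.8 and 37.8 CPM in WT and 78.9, 77.5 and 54.5 CPM in Prmt5AKO. All Prmt5AKO libraries were above all WT libraries. Slc16a10 had a log2 fold change of 0.92 ± 0.28 (limma adjusted p = 0.426), and the ratio of means was 1.90.

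For all 3 proton-coupled Slc36a carriers the genotypes overlapped on the deposited scale, and with DESeq2 size factors Slc36a1 had every Prmt5AKO library above every WT library. Slc36a2 (PAT2), a carrier of glycine, alanine and proline, was 190.4, 192 and 198 CPM in WT and 218, 145 and 143 CPM in Prmt5AKO. Prmt5AKO 1 was above and the other 2 below all WT libraries, and the log2 fold change was -0.22 ± 0.27 (limma adjusted p = 0.710), which was -0.42 without Prmt5AKO 1, -0.13 without Prmt5AKO 2 and -0.12 without Prmt5AKO 3. Slc36a1 (PAT1), found on lysosomes, and Slc36a4 (PAT4) overlapped. For Slc36a4, Prmt5AKO 1 at 25.3 CPM was within the WT range of 16.2 to 27.9 CPM, whereas Prmt5AKO 2 and 3 were at 10.8 and 8.07 CPM.

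The Slc38a family held the member with the most positive estimate. Slc38a3 (SNAT3, chr9:107650634-107669530), a carrier of glutamine, histidine and asparagine known from liver, kidney and astrocytes, was 5.85, 18.6 and 11.4 CPM in WT and 59.0, 30.5 and 35.0 CPM in Prmt5AKO. Every Prmt5AKO library exceeded every WT library, and Prmt5AKO 1 was the highest. By log2 fold change the difference was 1.83 ± 0.45 (adjusted p = 0.336 by limma and 0.0286 by DESeq2), and the ratio of means was 3.47. Without 1 library in turn it was between 1.42 (without WT 1) and 2.21 (without WT 2), with limma adjusted p from 0.0687 (without Prmt5AKO 1) to 0.946. Slc38a4 (SNAT4), an imprinted gene of liver and placenta, was 2.22, 2.84 and 1.10 CPM in WT and 1.16, 0.981 and 0.142 CPM in Prmt5AKO. WT 3 and Prmt5AKO 1 overlapped, and the log2 fold change was -1.07 ± 0.48 (limma adjusted p = 0.580), and -0.64 without Prmt5AKO 3.

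Slc38a2 (SNAT2), whose expression is known to be raised by amino acid shortage, varied widely within each genotype. It was 99.1, 37.1 and 90.1 CPM in WT and 89.2, 29.1 and 15.6 CPM in Prmt5AKO. WT 1, WT 3 and Prmt5AKO 1 were high and the other 3 low, which is the grouping that Xist showed. The log2 fold change was -0.996 ± 0.640 over all libraries (limma adjusted p = 0.610). It was -1.68 without Prmt5AKO 1 (limma adjusted p = 0.0664) and -0.44 without Prmt5AKO 3 (limma adjusted p = 0.998), the extremes with 1 library left out. Slc38a10, an abundant member of the family, had the opposite order within Prmt5AKO. It was 214, 249 and 188 CPM in WT and 182, 316 and 385 CPM in Prmt5AKO, so that Prmt5AKO 1 was the lowest of all 6 libraries. The log2 fold change was 0.38 ± 0.34 over all libraries (limma adjusted p = 0.648). Its extremes were 0.69 without Prmt5AKO 1 (limma adjusted p = 0.111) and 0.15 without Prmt5AKO 3 (limma adjusted p = 0.998). Over the 45 members tested, Prmt5AKO 1 was the highest of the 3 Prmt5AKO libraries for 25 and the lowest for 15, and over all genes tested these shares were 45.1% and 42.0%. The part of RNA quality in these library differences was not tested.

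The other Slc38a members, Slc38a1, Slc38a6, Slc38a7, Slc38a9 and Slc38a11, overlapped between genotypes. Slc38a9, which senses arginine on the lysosome, ran from 13.8 to 21.1 CPM in WT and from 10.1 to 31.3 CPM in Prmt5AKO, and Slc38a6 from 13.5 to 23.7 and from 5.48 to 35.1 CPM. For both, the highest and the lowest of the 6 libraries were of the Prmt5AKO genotype, and Prmt5AKO 1 was the highest.

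In the Slc43a family, Slc43a3 was 132, 119 and 136 CPM in WT and 119, 90.0 and 94.3 CPM in Prmt5AKO. WT 2 and Prmt5AKO 1 were nearly equal, and the log2 fold change was -0.36 ± 0.24 (limma adjusted p = 0.611). With DESeq2 size factors Slc43a3 had every Prmt5AKO library below every WT library. The large neutral amino acid carriers Slc43a1 (LAT3) and Slc43a2 (LAT4) had positive estimates of 0.34 and 0.44. The genotypes did not overlap for Slc43a2, by a margin of under 1 CPM (37.1 to 50.4 CPM in WT and 50.6 to 66.1 CPM in Prmt5AKO). They overlapped for Slc43a2 with plain library totals and with DESeq2 size factors.

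Slc7a7 and Slc7a8 lie on the same chromosome as the targeted gene, 89.4 kb and 205 kb from Prmt5 (chr14:54507187-54517525). Slc7a7 (y+LAT1), a light chain for cationic amino acids, was 7.33 to 8.15 CPM in WT and 6.31 to 10.7 CPM in Prmt5AKO, with a log2 fold change of 0.04 ± 0.32, while Slc7a8 was higher in every Prmt5AKO library as given above. These positions were looked up after the values were seen.

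Beyond the carriers, genes that respond to amino acid supply were followed in a pair of lists. Of 31 amino acid response genes tested (ATF4, its partners and targets), 0 were called. At an unadjusted p under 0.05 by limma, 4 were higher and 0 lower, where 4.79% and 3.93% of all genes were. The median log2 fold change was 0.30, and -0.03 over all genes tested. The genotypes did not overlap for 4 genes higher and 1 lower in Prmt5AKO, where 8.16% and 6.28% of all genes did not. Psat1, an enzyme of serine synthesis, was 118, 148 and 118 CPM in WT and 196, 409 and 322 CPM in Prmt5AKO. All Prmt5AKO libraries were above all WT libraries, with a log2 fold change of 1.22 ± 0.33 (limma adjusted p = 0.379). The secreted stress signal Gdf15 was 1.07, 2.35 and 0.463 CPM in WT and 2.78, 6.29 and 5.05 CPM in Prmt5AKO, with a log2 fold change of 1.62 ± 0.49 (limma adjusted p = 0.414). The transcription factor Cebpb was 57.4, 93.7 and 90.4 CPM in WT and 109, 139.9 and 142 CPM in Prmt5AKO, with a log2 fold change of 0.71 ± 0.29 (limma adjusted p = 0.542). For both, as for Psat1, the genotypes did not overlap. The remaining gene at an unadjusted p under 0.05 was Sesn2, an inhibitor of mTORC1 signalling, which overlapped between genotypes. Atf4 itself had a log2 fold change of -0.09 ± 0.26, and Chac1, a glutathione-degrading enzyme, was lower in every Prmt5AKO library (3.20 to 7.98 CPM, against 8.92 to 10.5 CPM in WT). These last genes were chosen after their values were seen.

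Of 33 genes of lysosomal amino acid sensing tested, which carry amino acid signals to the kinase complex mTORC1, 0 were called. At an unadjusted p under 0.05 by limma, 3 were higher and 0 lower, where 4.79% and 3.93% of all genes were. The median log2 fold change was 0.11, and -0.03 over all genes tested. Nprl2, a subunit of GATOR1, which holds mTORC1 back when amino acids are scarce, was 13.4, 15.03 and 11.9 CPM in WT and 21.3, 30.5 and 35.4 CPM in Prmt5AKO. Its log2 fold change was 1.06 ± 0.29 (limma adjusted p = 0.382), without overlap. Nprl3, another GATOR1 subunit, was 20.4, 26.6 and 20.4 CPM in WT and 30.8, 37.1 and 40.9 CPM in Prmt5AKO, also without overlap, with a log2 fold change of 0.68 ± 0.26 (limma adjusted p = 0.516). The GATOR2 subunit Wdr59 was 9.73, 9.39 and 12.2 CPM in WT and 30.8, 18.7 and 15.4 CPM in Prmt5AKO. Its Prmt5AKO values were all above the WT values, with a log2 fold change of 0.96 ± 0.34 (limma adjusted p = 0.484). Over the list, the genotypes did not overlap for 4 genes higher and 2 lower in Prmt5AKO, where 8.16% and 6.28% of all genes did not. The 2 lower include Rragb (0.568 to 0.783 CPM in WT and 0.236 to 0.371 CPM in Prmt5AKO). It reached 0.5 CPM in the WT libraries alone, so its lack of overlap followed from the filter.

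**Figure D4:**
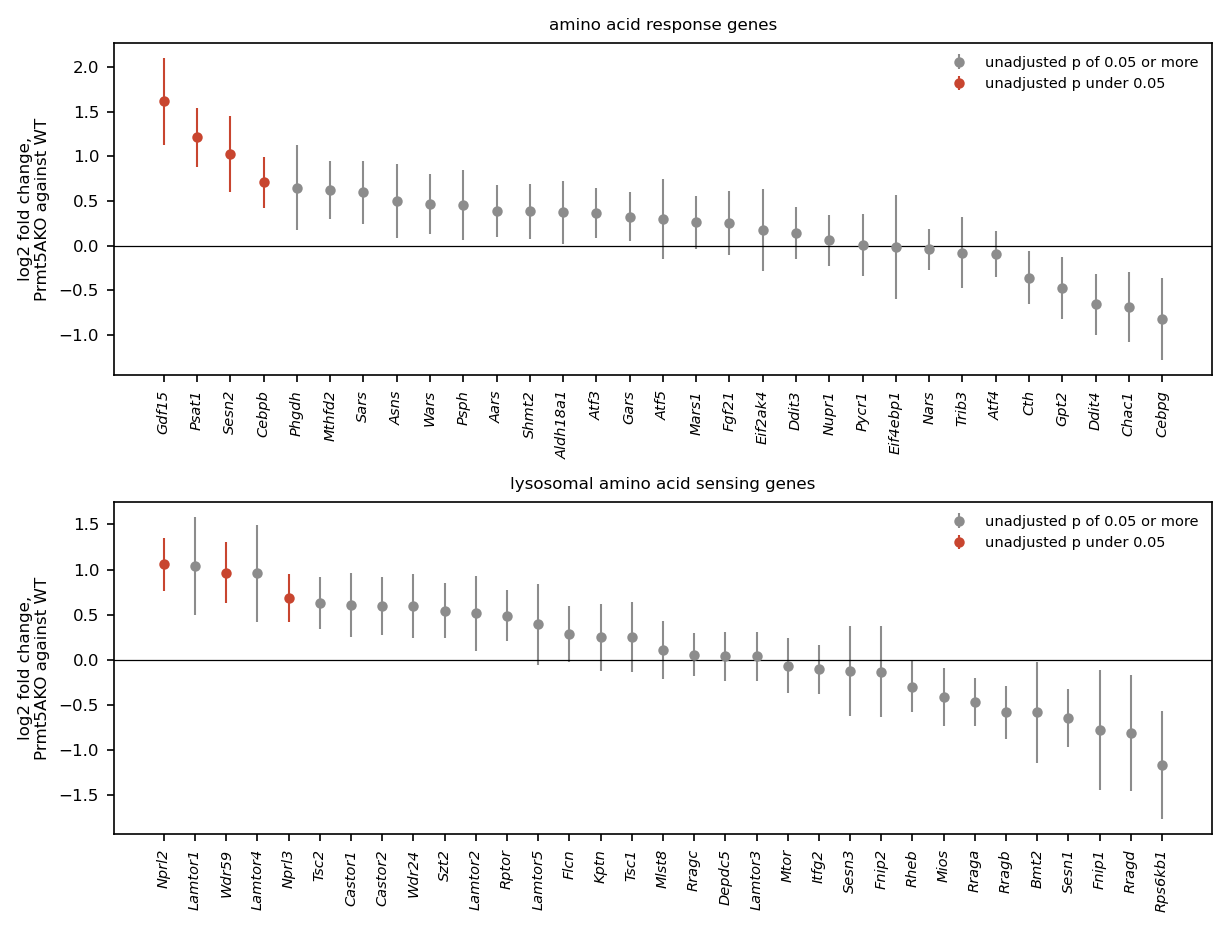
Log2 fold change of Prmt5AKO against WT for 31 amino acid response genes and 33 lysosomal amino acid sensing genes, each with the limma estimate as a point and its standard error as a bar. The genes at an unadjusted p under 0.05, in red, are all above 0, 4 in the upper panel and 3 in the lower. Over all genes tested, 4.79% were higher and 3.93% lower at that threshold. No gene was called after adjustment.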

How the data were processed

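RNA-seq of eWAT from 3 WT and 3 Prmt5AKO libraries was used. The authors' tools, by the labels and the study's methods, were FastQC 0.11.9 and Trim Galore 0.6.0 for the reads, STAR 2.7.10a for alignment to GRCm38, and featureCounts (Subread 2.0.1) for the reads of each gene. A batch correction is mentioned in the study's text, with no batch named. The deposited signal of a library is the CPM of each gene, scaled by the authors to effective library sizes. Every value was a whole multiple of what 1 read is worth (tolerance 0.05), so the reads, between 18731215 and 27445096 per library, were recovered for the count tests. Columns with the authors' fold changes, p-values and FDR were not used, nor were the other deposited tables of terms and gene lists.

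Of 16619 genes, the 16109 that reached 0.5 CPM in 3 or more libraries were fitted by limma 3.58.1 (eBayes with trend) on log2(CPM + 0.5), which understates the change of low genes. Genotype was the only term, and Benjamini-Hochberg adjustment covered all genes fitted. A gene was called where its adjusted p was below 0.05 and its log2 fold change above 0.5 or below -0.5. Standard errors of the log2 fold change had a median of 0.37 over genes. Exon lengths and gene positions came from GENCODE release M21 on GRCm38, and promoters from RefSeq. Scripts were tested on simulated data. The settings varied were the pseudocount (0.1 or 2 CPM), the low-value filter (none, or 2 CPM), the scaling (plain library totals, or DESeq2 size factors), calls by adjusted p alone, the test (limma-voom, edgeR 4.0.16, DESeq2 1.42.0), the replicate number as a block, and each library left out, with the genes kept from all 6.

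The members and lists were chosen with earlier results of these data known. The 20 carriers whose library values are all printed are the 7 that the study's text names, the 12 with the smallest p, the 8 with the highest level per exon length, and Slc3a2, Slc7a11, Slc7a5 and Slc38a2. Other carriers are given by range or count. From each pathway list the 3 genes with the smallest p were named.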

Additional observations from a re-analysis of the deposited data

How the results depend on the processing

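The count of carriers called, 0 by limma, stayed at 0 with another pseudocount, filter or scaling, with adjusted p alone, with limma-voom, with the edgeR quasi-likelihood test and with any 1 library left out. It was 1 with the edgeR likelihood ratio test and 3 with DESeq2. These tests used the recovered reads, as did limma-voom and the edgeR quasi-likelihood test, which called 0. Nothing in the sources used here says that same-numbered libraries were paired. Their deviations from the genotype means correlated at 0.68, 0.57 and -0.11 across genes, for replicates 1, 2 and 3. Differently numbered libraries were not compared in this way, so whether the numbers mark pairs or batches is not settled. With the replicate block, limma called 2 carriers (Slc1a3 and Slc7a10), with 129 genes in all, and the edgeR likelihood ratio test called 7 (Slc6a13, Slc38a3, Slc15a5, Slc6a2, Slc15a3, Slc1a3 and Slc7a10), with 686 genes in all, and each of these replicate block fits had 18 carriers at an unadjusted p under 0.05, against 11 without the block, where the share of all genes was 8.72% without the block, 19.8% with it by limma and 20.1% with it by the likelihood ratio test. The 7 carriers called by the likelihood ratio test with the block are the 7 that the study's text names as differentially expressed. Prmt5, at a log2 fold change of -1.06, was called in 1 alternative, the edgeR likelihood ratio test with the replicate block (-1.08, adjusted p = 0.037). Over its alternatives the adjusted p of Prmt5 ran from 0.037 to 0.955.

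With 1 library left out in turn, the carriers at an unadjusted p under 0.05 numbered 8 to 20. The share of all genes at that threshold ran from 3.98% (without WT 3) to 35.3% (without Prmt5AKO 1). Carriers whose genotypes do not overlap numbered 16 to 31, against 15 with all libraries. The median log2 fold change of the carriers ran from -0.38 (without Prmt5AKO 1) to -0.039 (without WT 1). Leaving out a library cannot lower the count without overlap, so a count of at least 15 was fixed in advance. The shares of all genes without overlap rose in each case too. The counts of 20 and 31 and the median of -0.38 are those without Prmt5AKO 1. Of the 31, 10 were higher and 21 lower, and without that library 28.1% of all genes were higher and 28.7% lower. With plain library totals 10 carriers did not overlap, and with DESeq2 size factors 16 did not. The shares of all genes without overlap under these scalings were not computed, so these counts have no background beside them. No named carrier and not Prmt5 had an estimate of the opposite sign under any alternative run. Slc15a5, Slc38a4 and Slc7a11 gave no value with a filter at 2 CPM, which they did not pass. Carriers under about 1 CPM rest on few reads per library, and no detection limit was computed for them.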
